A study of Rattus norvegicus with 30 samples.

Results

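The 6 genes described here ranked first for their fall after traumatic brain injury (TBI), by the rule given below, among the 26404 genes counted in a rat study of 3 brain areas. ENSRNOG00000008716, ENSRNOG00000009540, ENSRNOG00000017987, ENSRNOG00000004756 and ENSRNOG00000002158 were chosen by their fall in the perilesional cortex, and ENSRNOG00000001251 was chosen by its fall in the ipsilateral thalamus. The selection took genes with an adjusted p under 0.05 with every TBI library below every sham library and a mean level of 1 CPM (counts relative to the size of the library) or more, ranked by log2 fold change (TBI against sham, so that negative values are falls). The values of the first 5 genes in the cortex and of the sixth in the thalamus are therefore given as a description, and tests are given for the areas that did not choose them. Choice by rank favors large falls, and the standard errors and intervals of the chosen values do not allow for it. The count tables list genes by identifier alone and the table of names used here paired none of them with a symbol, so the products and functions of these genes are not given.

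The study asked which transcripts remain altered long after a brain injury. Lateral fluid-percussion injury was induced in adult male Sprague-Dawley rats by a brief fluid pulse on the intact dura through an opening in the left side of the skull, and sham-operated animals had the same anesthesia and surgery without the pulse. Tissue was collected 3 months later from the perilesional cortex, the ipsilateral thalamus and an area that the labels name dorsal hippocampus and the methods describe as dentate gyrus with part of CA3. The same 10 rats gave all areas, with sham-operated rats numbered 1 to 5 and rats with TBI numbered 6 to 10, so each area had 5 libraries per group and the series had 30. The dissected pieces hold neurons, glia and vessels together, and the labelled tissues could not be checked against cell type markers because the genes carry no names. Both groups had an opened skull, so a comparison between them leaves out what surgery itself changes.

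A fluid pulse of this kind damages the cortex beneath the opening, and the lesion can go on growing for months. The cortex and thalamus are joined by fibers that run in both directions, and thalamic neurons that project to a damaged area of cortex are known to degenerate later, while glia become reactive in both places. A transcript counted in a whole piece of tissue follows both the number of cells that make it and the amount each cell makes. In these bulk samples, fewer cells of a type and less RNA per cell cannot be told apart.

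Between 21992859 and 31799879 reads per library were counted on genes. Levels are given as CPM on a single scale for all 30 libraries (the trimmed mean of M-values, TMM, over all libraries), where 1 CPM stood for 12.7 to 37.2 counts, and log2 fold changes come from edgeR's quasi-likelihood test in each area alone, with p-values adjusted over all genes tested. Differences in level between these genes are not read, since gene lengths were not used here. According to the methods, the thalamic libraries had longer reads and came from a different instrument, so brain area and sequencing run cannot be told apart in comparisons between the thalamus and the other areas. The 10 most counted genes took a share of each library that moved with injury in the cortex, where it was 20.3% to 29.6% in the sham libraries and 14.1% to 23.8% in the TBI libraries, and its part in the falls is given below as a fit with that share as a covariate.

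**Figure D1:**
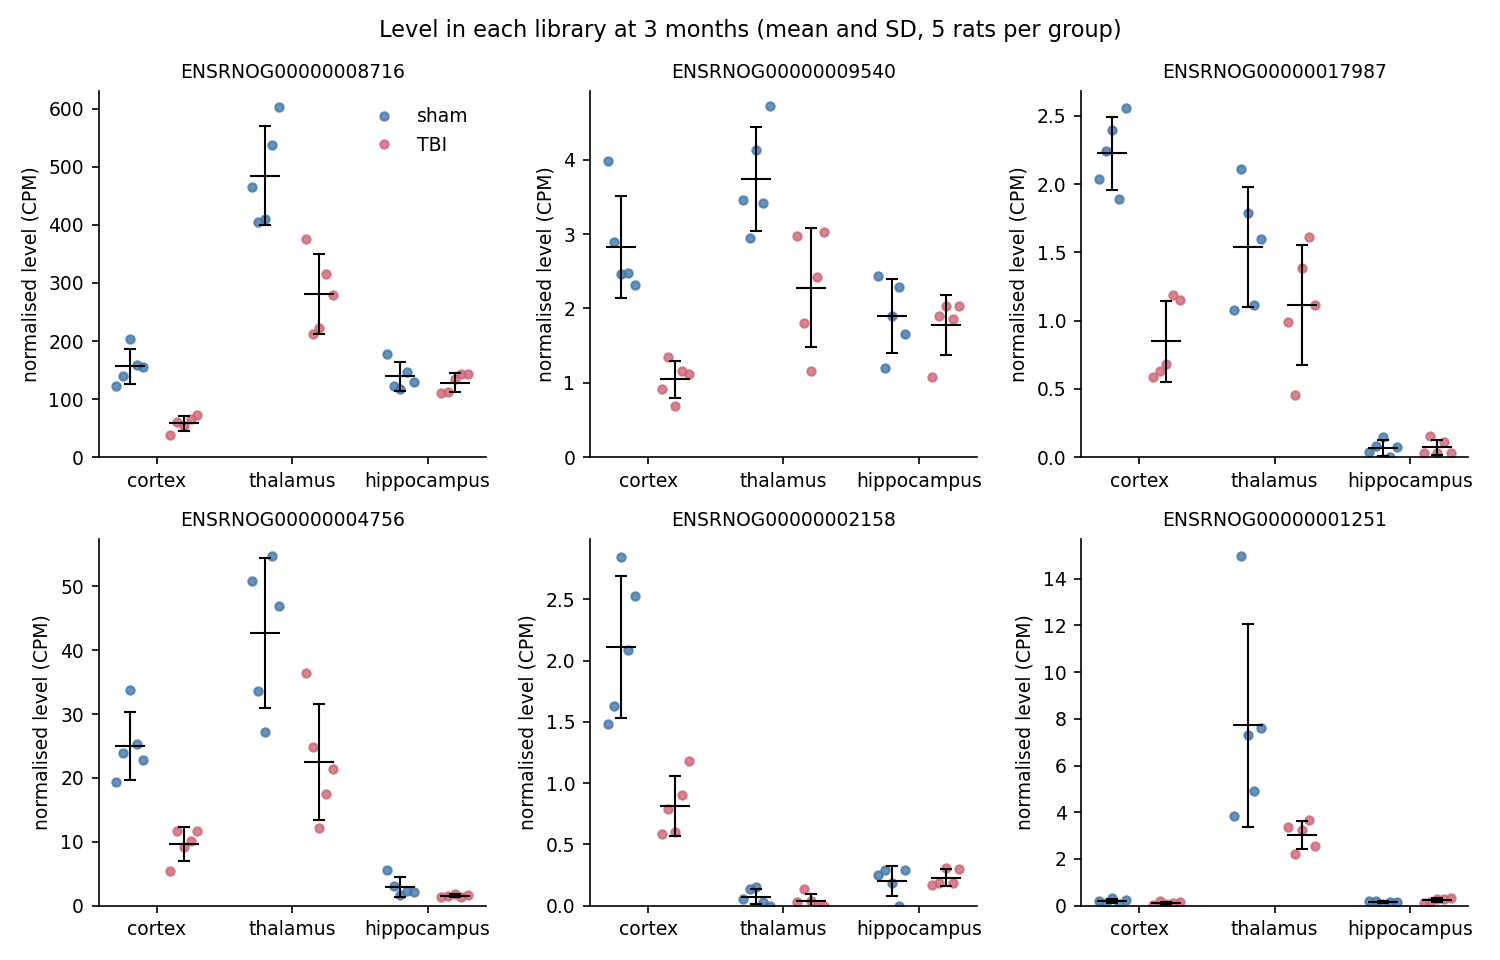
The level of each of the 6 genes in CPM on the vertical axis is plotted for every library by brain area, with sham-operated rats in blue and rats with TBI in red (in order of rat number from left to right within a group), and the bars give the mean and SD of 5 rats. In the cortex the red and blue points of the first 5 genes do not meet, ENSRNOG00000002158 is near 0 outside the cortex, and ENSRNOG00000001251 is near 0 outside the thalamus.

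In the perilesional cortex, the first 5 genes had log2 fold changes between -1.40 and -1.35, which left 37.0% to 38.7% of the sham mean in the rats with TBI. Of the 17185 genes tested there, 11.6% were called lower in TBI and 9.1% had all TBI libraries below all sham libraries, and the selection required both of each gene. The next gene by the same rule, just outside the selection, had a log2 fold change of -1.31 and was at 1.82 ± 0.451 CPM (SD, n = 5) in sham and at 0.729 ± 0.294 CPM (SD, n = 5) in TBI. Another 3 genes with log2 fold changes between -1.43 and -1.40 were left out because their groups overlapped or their level was under 1 CPM. The 5 genes therefore sat at the lower edge of a continuous distribution, in which 44 of the tested genes had a log2 fold change below -1 and the median of all genes was -0.012.

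ENSRNOG00000008716 was the most counted of the 6, with 1316 to 5875 counts per cortical library. Its cortical level in sham-operated rats 1 to 5 was 123, 141, 204, 158 and 156 CPM, a mean of 156 ± 30.1 CPM (SD, n = 5). In rats 6 to 10, which had TBI, it was 37.6, 61.1, 52.9, 66.4 and 72.6 CPM, a mean of 58.1 ± 13.6 CPM (SD, n = 5). The highest rat with TBI lay well under the lowest sham-operated rat, and the sham mean was 2.69 times the TBI mean. This is a log2 fold change of -1.40 with a standard error of 0.17, in the contrast that chose the gene.

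ENSRNOG00000009540 was low in every cortical library, with 63 to 78 counts in the sham libraries and 17 to 37 in the TBI libraries. Its level was 3.98, 2.89, 2.47, 2.48 and 2.31 CPM in the sham-operated rats and 0.923, 1.34, 0.684, 1.16 and 1.12 CPM in the rats with TBI. Sham-operated rat 1 was the highest and the others lay close together. The group means of 2.83 ± 0.681 CPM (SD, n = 5) in sham and 1.05 ± 0.252 CPM (SD, n = 5) in TBI gave a log2 fold change of -1.39, with a standard error of 0.21.

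ENSRNOG00000017987 had the tightest sham group of the 5 in the cortex, with a coefficient of variation of 12.1%. The sham-operated rats were at 2.04, 2.24, 2.40, 1.89 and 2.56 CPM, and the rats with TBI at 0.587, 0.633, 0.684, 1.19 and 1.15 CPM. Rats 6, 7 and 8 were near each other and below rats 9 and 10. Its log2 fold change was -1.35, with a standard error of 0.22, and rested on 40 to 72 counts per sham library and 16 to 38 per TBI library.

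ENSRNOG00000004756 went from 19.3, 23.9, 33.7, 25.3 and 22.8 CPM in the sham-operated rats to 5.45, 11.7, 9.17, 10.2 and 11.7 CPM in the rats with TBI. Rat 6 had the lowest level and the other rats with TBI lay between 9.17 and 11.7 CPM. The means were 25 ± 5.35 CPM (SD, n = 5) in sham and 9.66 ± 2.59 CPM (SD, n = 5) in TBI. Between them the log2 fold change was -1.35, with a standard error of 0.20.

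ENSRNOG00000002158 went from 1.48, 1.63, 2.85, 2.08 and 2.52 CPM to 0.587, 0.791, 0.603, 0.907 and 1.18 CPM. The gap between the groups was narrow, since rat 10 at 1.18 CPM came near sham-operated rat 1 at 1.48 CPM. With 15 to 38 counts per TBI library and 29 to 82 per sham library, the standard error of its log2 fold change of -1.35 was 0.25.

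Among the rats with TBI, rat 6 had the lowest cortical level of 4 of the 5 genes and rat 8 that of ENSRNOG00000009540. Rat 10 had the highest level of 3 of the 5. In the cortex of rat 6 the 10 most counted genes also took the lowest share of the counts (14.1%), and in rats 9 and 10 they took 16.4% and 16.2%. With that share as a covariate, the log2 fold changes of the 5 genes lay between -1.68 and -1.18, against -1.40 to -1.35 without it. Leaving out each rat in turn gave values between -1.53 and -1.20, for genes already chosen with all the rats.

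**Figure D2:**
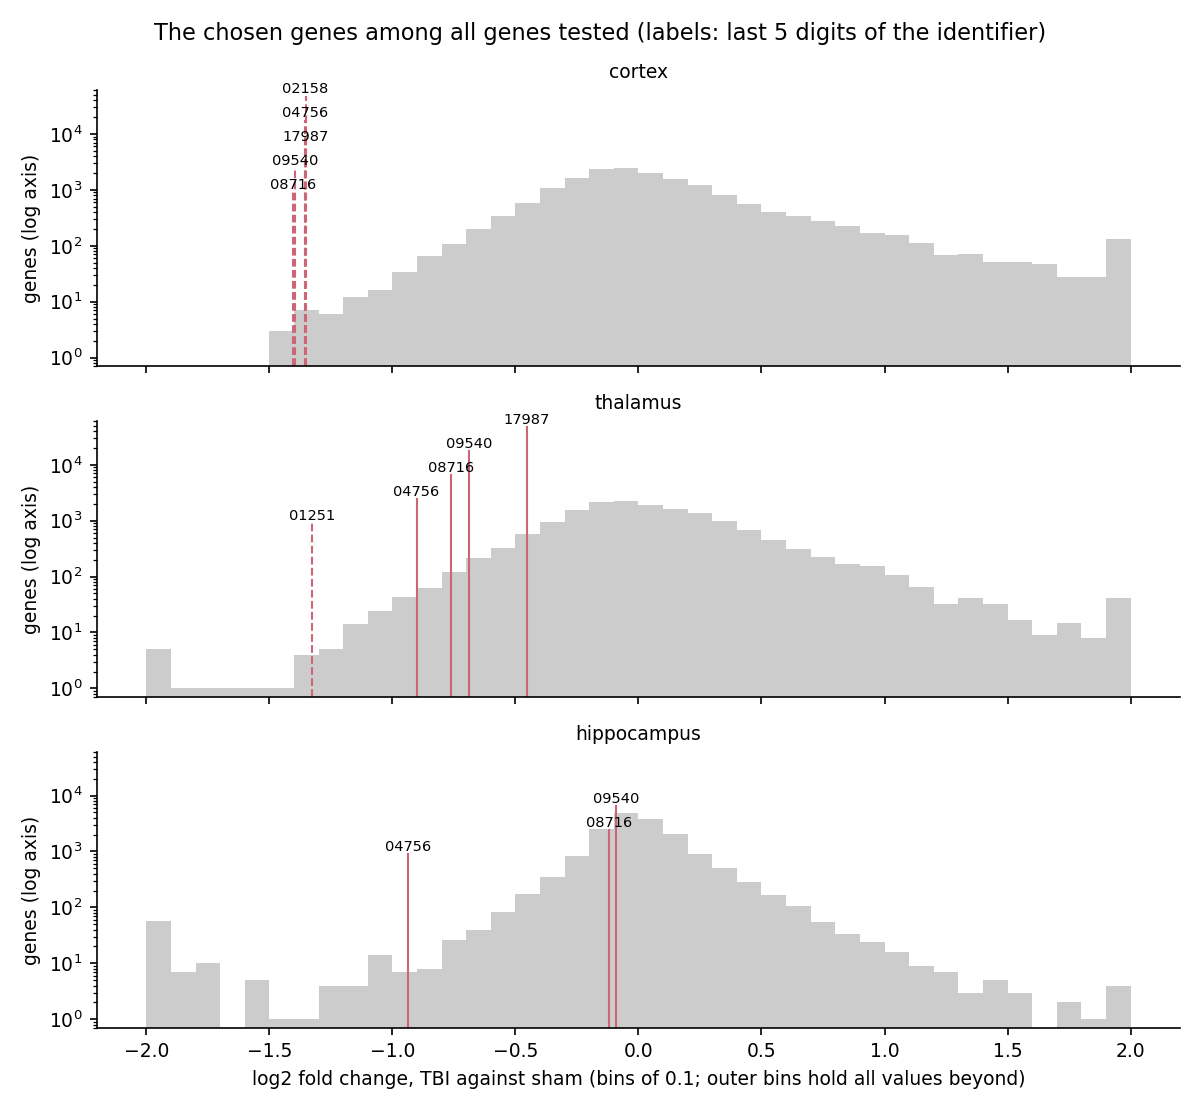
The number of genes tested (vertical log axis) is plotted by log2 fold change between TBI and sham in bins of 0.1 for each brain area, and red lines mark the chosen genes by the last 5 digits of their identifiers, dashed where that area chose the gene. The lines stand at the lower edge in the cortex, within the lower tail in the thalamus, and near the center in the hippocampus except for ENSRNOG00000004756 at -0.94.

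In the thalamus, which did not choose the first 5 genes, ENSRNOG00000008716 was downregulated, and the other 3 that could be tested had negative values that did not pass the threshold. Their log2 fold changes were -0.90 for ENSRNOG00000004756, -0.76 for ENSRNOG00000008716, -0.69 for ENSRNOG00000009540 and -0.45 for ENSRNOG00000017987, with a median of -0.73 beside -0.0016 for the 16605 genes tested. ENSRNOG00000002158 was below the filter on low counts there. The background in the thalamus was 1.85% of genes called lower and 3.27% with all TBI libraries below all sham libraries, and 1 of the 4 genes tested met each of these. Only 0.596% to 6.46% of all tested genes had a more negative log2 fold change than these 4 genes.

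ENSRNOG00000008716 was at 466, 405, 410.4, 538 and 603 CPM in the thalamus of the sham-operated rats and at 376, 211, 222, 315 and 280.1 CPM in the rats with TBI. All 5 rats with TBI were below all sham-operated rats, with rat 6 the highest of them. The mean was 484 ± 85.4 CPM (SD, n = 5) in sham and 281 ± 68.1 CPM (SD, n = 5) in TBI. This change of -0.76 on the log2 scale (95% interval -1.12 to -0.40) had a standard error of 0.17 and an adjusted p of 0.0271 by edgeR's quasi-likelihood test. The adjusted p was 0.00124 in DESeq2, 0.00446 in limma's voom with sample quality weights and 0.00148 in one edgeR fit for the 30 libraries. The value stayed between -0.89 and -0.67 when each rat was left out. However, the adjusted p from edgeR rose to between 0.0534 and 0.0804 without rat 3, 4, 5, 7, 8 or 10. In those fits between 0 and 468 thalamic genes were called in either direction, against 934 with all 10 libraries. With the share of the 10 most counted genes as a covariate, which was 6.32% to 9.13% in sham and 7.53% to 10.5% in TBI, the log2 fold change was -0.72 and the adjusted p 0.127, and no gene of the thalamus was called by edgeR (3115 had an unadjusted p under 0.05).

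ENSRNOG00000004756 had the most negative thalamic value of the 4. The sham-operated rats were at 50.9, 33.7, 27.3, 54.8 and 46.9 CPM and the rats with TBI at 36.5, 24.9, 12.2, 17.5 and 21.4 CPM. Rat 6 lay among the sham-operated rats, and the other 4 rats with TBI lay below all of them. On the log2 scale the change was -0.90 (95% interval -1.47 to -0.34), with a standard error of 0.26 and an adjusted p of 0.0614 by edgeR. Without rat 6 it was -1.14 and the adjusted p 0.00761, while over all alternatives the adjusted p ran from 0.00761 to 0.210.

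ENSRNOG00000009540 was at 3.46, 2.94, 4.13, 3.42 and 4.73 CPM in the sham-operated rats and at 2.97, 1.80, 1.15, 2.42 and 3.03 CPM in the rats with TBI. Rats 6 and 10 overlapped the lowest sham-operated rat, and rat 8 was the lowest, as it was for this gene in the cortex. The change of -0.69 on the log2 scale had a 95% interval from -1.23 to -0.15 and missed the threshold, with an adjusted p of 0.118 by edgeR.

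ENSRNOG00000017987 was at 1.08, 2.11, 1.79, 1.12 and 1.60 CPM in the sham-operated rats and at 0.990, 0.457, 1.39, 1.61 and 1.11 CPM in the rats with TBI. The groups overlapped, with rat 9 above 3 of the sham-operated rats. Its log2 fold change of -0.45 had a 95% interval from -1.13 to 0.23 and an adjusted p of 0.413 by edgeR. It was -0.24 without rat 7 and -0.79 (95% interval -1.53 to -0.051) with the share of the 10 most counted genes as a covariate, and the adjusted p stayed between 0.242 and 0.658 over the alternatives.

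ENSRNOG00000001251, the gene chosen in the thalamus, was at 3.82, 14.95, 7.30, 4.91 and 7.59 CPM in the sham-operated rats and at 3.36, 2.21, 3.23, 3.67 and 2.57 CPM in the rats with TBI. The rats with TBI were close together, whereas the sham-operated rats spread widely, with coefficients of variation of 19.99% and 56.3%. Rat 9, the highest with TBI, was just under sham-operated rat 1, and sham-operated rat 2 stood far above the rest. The mean was 7.72 ± 4.35 CPM (SD, n = 5) in sham and 3.01 ± 0.601 CPM (SD, n = 5) in TBI. In this contrast, which chose it, the log2 fold change was -1.33 with a standard error of 0.31. Leaving out single rats gave values from -1.49 to -0.96, the latter without sham-operated rat 2. The adjusted p of 0.0308 from edgeR that the selection used rose to between 0.0699 and 0.0938 without rat 3, 5, 7, 8 or 10, and to 0.127 (log2 fold change -1.61) with the share of the 10 most counted genes as a covariate. The next gene of the thalamus by the same rule had a log2 fold change of -1.29, and 2 genes that were called with larger falls, -1.63 and -1.36, were left out because their groups overlapped or their level was under 1 CPM. Another 10 genes had more negative thalamic values, from -4.10 to -1.40, that did not pass the threshold, so ENSRNOG00000001251 ranked first only among the genes that met the rule.

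**Figure D3:**
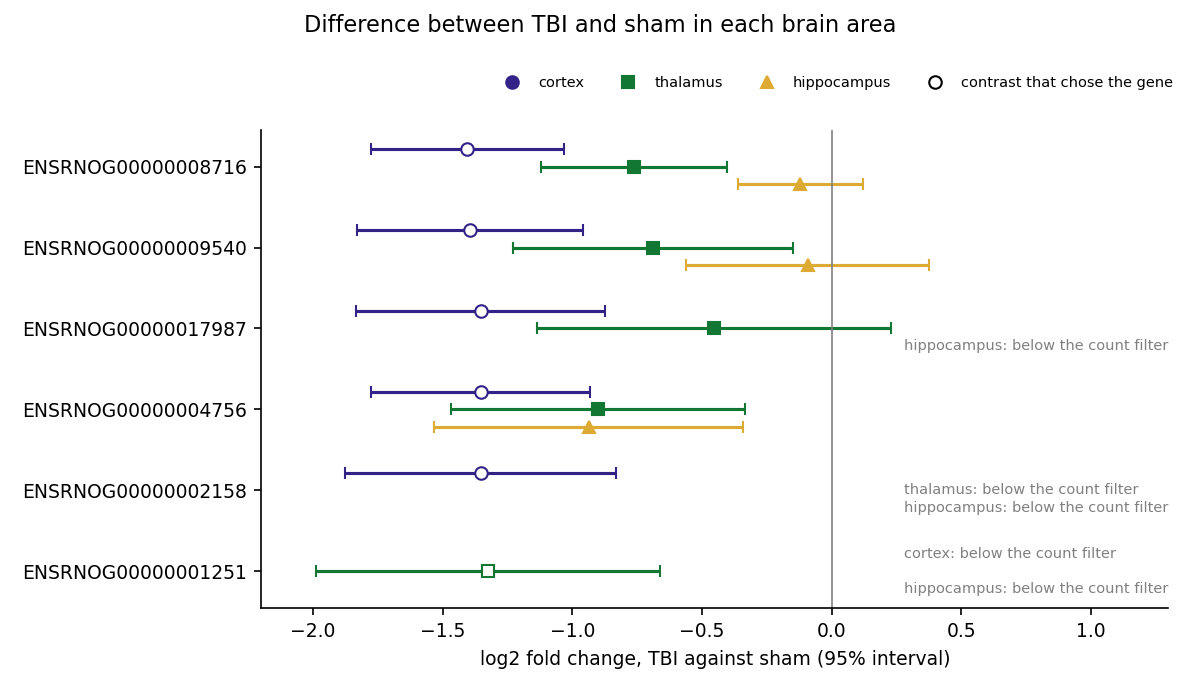
The log2 fold change between TBI and sham is plotted on the horizontal axis for each gene and brain area with its 95% interval, and open symbols mark the contrast that chose the gene. Among the filled symbols, the thalamic intervals of ENSRNOG00000008716, ENSRNOG00000009540 and ENSRNOG00000004756 lie below 0, and so does the hippocampal interval of ENSRNOG00000004756, while the hippocampal intervals of the other two span 0.

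Before the hippocampal values are read, the labels of 2 of its libraries need a caution. In the cortex and thalamus, 36 genes parted rat 3 (sham) from rat 8 (TBI) by at least 4-fold in the same direction, and in the hippocampus 35 of them (97.2%) differed between the libraries labelled rat 3 and rat 8 in the opposite direction. For the other 24 pairs of a sham-operated rat and a rat with TBI, between 0% and 34.6% of such genes did so. Tested hippocampal fold changes are therefore given with and without the libraries labelled rats 3 and 8. In addition, the libraries of sham-operated rats 4 and 5 had 44.1% and 40.9% of their counts in 10 genes, against 9.95% to 16.4% in the other hippocampal libraries. According to the methods, a pair of sham hippocampal libraries was left out of the original analysis for a low share of aligned reads, without saying which. All 5 sham libraries are kept here, and the tested fold changes are also given without rats 4 and 5.

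In the hippocampus, none of the 3 chosen genes that passed the filter was called, and no gene of the 16963 tested was called lower by edgeR (0% of genes, with 1432 genes in either direction at an unadjusted p under 0.05). DESeq2 gave an adjusted p to only 2722 genes and called 41 of them. It gave none to ENSRNOG00000004756 or ENSRNOG00000009540. Of the genes tested, 0.413% had all TBI libraries below all sham libraries, and 0 of these 3 genes did. Their log2 fold changes were -0.94 for ENSRNOG00000004756, -0.12 for ENSRNOG00000008716 and -0.09 for ENSRNOG00000009540.

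ENSRNOG00000008716 was at 178, 123, 118, 147 and 129 CPM in the hippocampus of the sham-operated rats and at 111, 112, 135, 143 and 143 CPM in the rats with TBI. Rats 6 and 7 lay just below the sham range and the other rats with TBI within it. The 95% interval of the log2 fold change was -0.36 to 0.12 (adjusted p = 0.815 by edgeR). Without the libraries labelled rats 3 and 8 the value was -0.19, and without sham-operated rats 4 and 5 it was -0.13. It was -0.011 without rat 1 and -0.058 in voom, and leaving out each rat in turn gave -0.17 to -0.011.

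ENSRNOG00000009540 was at 2.43, 1.20, 1.90, 2.28 and 1.65 CPM in the sham-operated rats and at 1.08, 1.90, 2.04, 1.86 and 2.03 CPM in the rats with TBI. Here 4 rats with TBI stood within the sham range and rat 6 stood alone below it. The change of -0.09 on the log2 scale (95% interval -0.56 to 0.38, adjusted p = 0.937 by edgeR) became -0.14 without the libraries labelled rats 3 and 8 and -0.064 without sham-operated rats 4 and 5. Its sign turned without rat 1 (0.040), without rat 6 (0.043) and in voom (0.0039).

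ENSRNOG00000004756 was at 5.51, 3.02, 1.64, 2.28 and 2.08 CPM in the sham-operated rats and at 1.34, 1.53, 1.90, 1.35 and 1.67 CPM in the rats with TBI. The lowest sham value belonged to the library labelled rat 3 and the highest TBI value to that labelled rat 8. Sham-operated rat 1 was far above the others. Its log2 fold change of -0.94 (95% interval -1.53 to -0.34) missed the threshold, with an adjusted p of 0.505 by edgeR. Without the libraries labelled rats 3 and 8 it was -1.18 with an adjusted p of 0.0450, at 4 rats per group, and 263 genes were then called. Without rat 1 alone it was -0.53 (adjusted p = 0.493 by edgeR), and leaving out each rat in turn gave -1.10 to -0.53 with no call. Over all alternatives, the adjusted p ran from 0.0450 to 0.943. Without sham-operated rats 4 and 5 it was -1.13 (adjusted p = 0.850 by edgeR). Most hippocampal column names share a tag that the sources used here do not explain, and without rats 5 and 10, which have another tag, and rat 1, which has none, the log2 fold change was -0.59 (adjusted p = 0.890 by edgeR).

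The genes below the filter were near or at the floor of detection, set here at 3 counts per library. ENSRNOG00000017987 had 1, 2, 4, 0 and 1 counts in the hippocampus of the sham-operated rats and 1, 5, 1, 3 and 1 in the rats with TBI. ENSRNOG00000002158 had 2, 4, 4, 1 and 0 counts in the thalamus of the sham-operated rats and 1, 5, 1, 0 and 0 after TBI. At this depth, no difference between the groups could be measured for either gene in that area, and no fold change is given.

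The hippocampal counts of ENSRNOG00000002158 were slightly higher, at 7, 7, 5, 0 and 4 in the sham-operated rats and 5, 6, 9, 5 and 10 in the rats with TBI. The groups overlapped, and the gene was below the filter there, so no fold change is given.

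ENSRNOG00000001251 was detected in the other areas only at a trace. It had 4, 3, 10, 2 and 7 counts in the cortex of the sham-operated rats and 1, 5, 2, 3 and 5 after TBI. In the hippocampus it had 5, 5, 2, 2 and 2 counts in the sham-operated rats and 4, 5, 8, 8 and 11 after TBI. The groups overlapped in both areas, and at these counts no fold change is given.

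The effect of TBI in the thalamus was compared with that in the hippocampus for ENSRNOG00000008716, ENSRNOG00000009540 and ENSRNOG00000004756, since neither area had chosen them. ENSRNOG00000017987 and ENSRNOG00000002158 are not compared, because one of these areas held only a trace of each. No gene passed this test in edgeR (0% of 17617 genes in either direction, with 2356 genes at an unadjusted p under 0.05), whereas DESeq2 called 172 genes and limma's voom with sample quality weights called 728. For ENSRNOG00000008716 the log2 fold change was lower in the thalamus by a difference of -0.69 (95% interval -1.14 to -0.23, adjusted p = 0.201 by edgeR). It was -0.62 (adjusted p = 0.435) without the libraries labelled rats 3 and 8 and -0.67 (adjusted p = 0.418) without sham-operated rats 4 and 5. The difference was -0.84 with an adjusted p of 0.0230 without rat 6 and -0.87 with an adjusted p of 0.0135 in voom, and the adjusted p ran up to 0.516 over the alternatives.

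For ENSRNOG00000009540 the same difference was -0.64 (95% interval -1.36 to 0.08, adjusted p = 0.436 by edgeR). It was -0.59 without the libraries labelled rats 3 and 8 and -0.66 without sham-operated rats 4 and 5. Leaving out each rat in turn gave -0.87 to -0.43, the latter without rat 8, with no call. For ENSRNOG00000004756 the difference was 0.0012, with a wide 95% interval from -0.88 to 0.88 (adjusted p = 0.999 by edgeR). Its sign depended on the libraries and the tool, since it was 0.24 without the libraries labelled rats 3 and 8, 0.20 without sham-operated rats 4 and 5, -0.34 without rat 1 and -0.38 in voom, none past the threshold.

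**Figure D4:**
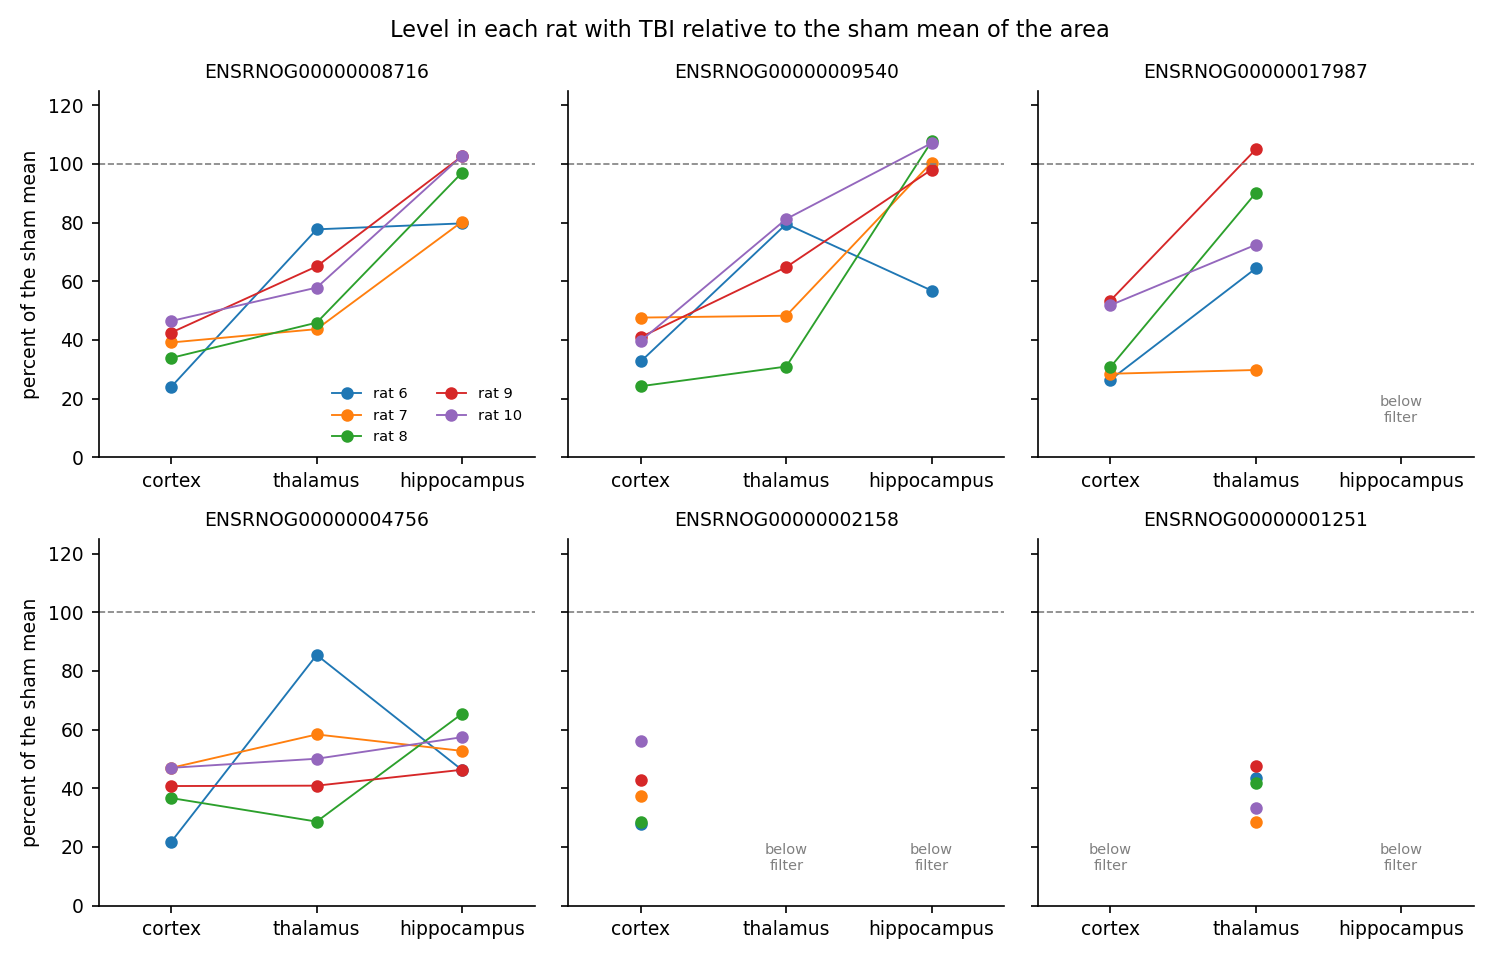
The level of each rat with TBI is plotted as a percentage of the sham mean of the same brain area (vertical axis), with 1 color and line per rat and a dashed line at the sham mean. For ENSRNOG00000004756, rat 6 is the lowest in the cortex at 21.8% and the highest in the thalamus at 85.5%.

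The rats with TBI did not keep one order across areas. Rat 6 had 24.0% of the sham mean of ENSRNOG00000008716 in the cortex, 77.7% in the thalamus and 79.7% in the hippocampus. For ENSRNOG00000004756 the same rat had 21.8%, 85.5% and 46.2%. Rat 8 had 24.2% of the sham mean of ENSRNOG00000009540 in the cortex and 30.9% in the thalamus, the lowest of the rats with TBI in each. For ENSRNOG00000017987, rat 9 was the highest in both areas, at 53.4% in the cortex and 105% in the thalamus, while rat 7 was at 28.4% and 29.7%.

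In the sham-operated rats, the size of the difference in level between brain areas varied from gene to gene. In the comparison of thalamus with hippocampus, 33.2% of the 16748 genes tested were higher in the thalamus. ENSRNOG00000008716 was higher there in all 5 rats, by a log2 ratio of 1.81 (95% interval 1.51 to 2.10, adjusted p = 1.04e-07 by edgeR), and the thalamic level of each rat was 2.62 to 4.67 times its hippocampal level. ENSRNOG00000004756 was higher by a log2 ratio of 3.84 (95% interval 3.19 to 4.48, adjusted p = 2.96e-07 by edgeR). ENSRNOG00000009540 was also higher in the thalamus, with a log2 ratio of 0.98 (95% interval 0.53 to 1.43, adjusted p = 0.000925 by edgeR). ENSRNOG00000017987 had 224 thalamic and 8 hippocampal counts over the sham libraries, and passed the filter only through the thalamus, so its higher thalamic level (1.54 against 0.0680 CPM) is given with no test. Without the libraries labelled rats 3 and 8 the log2 ratios of the other 3 genes were 1.72, 3.64 and 0.95 in the order given, and without sham-operated rats 4 and 5 they were 1.80, 3.65 and 1.01, each still past the threshold.

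Across the 6 groups of brain area and treatment, ENSRNOG00000008716 was highest in the thalamus of sham-operated rats, followed by the thalamus after TBI, and the ranges of these groups did not meet each other or the next group. The sham cortex (156 CPM) came next, and its range overlapped that of the sham hippocampus (139 CPM), which overlapped the hippocampus after TBI (128 CPM). The cortex after TBI (58.1 CPM) was lowest and apart from all others. The ratio of the cortical to the hippocampal mean was 1.13 in sham-operated rats and 0.453 in rats with TBI.

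ENSRNOG00000009540 formed a shallow series from 3.74 CPM in the sham thalamus through 2.83 in the sham cortex, 2.28 in the thalamus after TBI, 1.89 in the sham hippocampus and 1.78 in the hippocampus after TBI to 1.05 in the cortex after TBI. Every neighbouring pair in this order overlapped. ENSRNOG00000017987 ran from 2.23 CPM in the sham cortex through 1.54 and 1.11 CPM in the thalamus of sham-operated rats and of rats with TBI to 0.849 CPM in the cortex after TBI, each overlapping the next, and both hippocampal groups (0.0720 CPM after TBI and 0.0680 CPM in sham) stood apart below. The cortical mean was above the thalamic mean in sham-operated rats and below it in rats with TBI, with overlapping ranges in both.

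ENSRNOG00000004756 was at 42.7 CPM in the sham thalamus, 25 CPM in the sham cortex and 22.5 CPM in the thalamus after TBI, and neighbours overlapped. The cortex after TBI (9.66 CPM) was apart from these. Its lowest rat, at 5.45 CPM, just overlapped the highest sham hippocampus, at 5.51 CPM, and the hippocampal means were 2.91 CPM in sham and 1.56 CPM after TBI. In sham-operated rats the cortical level of this gene was 8.59 times the hippocampal level.

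ENSRNOG00000002158 was found mainly in the cortex. Both cortical groups (2.11 and 0.814 CPM) stood apart from each other and from the hippocampal groups (0.228 CPM after TBI and 0.203 CPM in sham), which overlapped. The thalamic groups were lowest, at 0.0747 CPM in sham and 0.0401 CPM after TBI. After TBI the cortical level was still 3.58 times the hippocampal level, which rests on only 5 to 10 counts per library. The cortical level was the higher in all 5 rats. In the same way, ENSRNOG00000001251 was found mainly in the thalamus. Its sham and TBI groups there (7.72 and 3.01 CPM) stood apart from each other and from the remaining groups, which lay between 0.111 and 0.236 CPM and overlapped. After TBI its thalamic level was above the cortical and the hippocampal level in all 5 rats. It was 7.84 to 24.9 times the hippocampal level of the same rat, but these ratios rest on only 4 to 11 hippocampal counts per library. They include the library labelled rat 8. No ratio to the cortex is given, since 3 of the 5 cortical libraries after TBI were at or below the floor.

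The profiles of the 6 genes over the 30 libraries differed from one another. After each gene was centered on its mean, the root mean square difference in log2 CPM was smallest between ENSRNOG00000008716 and ENSRNOG00000009540, at 0.61, and between ENSRNOG00000017987 and ENSRNOG00000004756, at 0.84. All other pairs differed by 1.25 to 3.13, the largest being that of ENSRNOG00000002158 and ENSRNOG00000001251. This measure follows mainly the differences between brain areas and shares its libraries with the contrasts above, so it is a description.

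By the same measure over the genes tested in every area with a mean of at least 1 CPM, each gene had nearer neighbours outside the selection. The nearest gene to ENSRNOG00000008716 differed by 0.33, where the median gene differed by 1.06, and it had log2 fold changes of -0.62 in the cortex, -0.55 in the thalamus and -0.0059 in the hippocampus. The nearest gene to ENSRNOG00000009540 differed by 0.31 and had -0.71, -0.66 and -0.15 in the same order of areas. ENSRNOG00000017987 and ENSRNOG00000004756 had the same nearest gene, at 0.49 and 0.53, with log2 fold changes of -1.01 in the cortex, -0.64 in the thalamus and -0.13 in the hippocampus. For the genes of a single area, the nearest ones differed by 0.53 (ENSRNOG00000002158) and 0.50 (ENSRNOG00000001251). The 3 nearest genes of each of the 5 cortical genes were all called lower in the cortex, against a background of 11.6% of genes, and since the cortical libraries enter the measure nothing is read from this. None of the 3 nearest genes of ENSRNOG00000001251 was called lower in any area. The background of genes called lower was 1.85% in the thalamus and 0% in the hippocampus. Genes found in a single area could not enter the comparison, so nothing is read from this either.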

How the data were processed

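mRNA was sequenced from the perilesional cortex, ipsilateral thalamus and dorsal hippocampus of 10 rats. Per the labels, the authors aligned reads to Rnor_5.0 with STAR and deposited unnormalized counts per Ensembl gene, in a table per area. The counting tool and the use of strand are not given in the sources used here, so overlapping or antisense genes may share reads. Columns were assigned to samples by their names, with 0 columns left unused.

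The deposited counts were analysed in R 4.3.3 with edgeR 4.0.16. Within each area, genes were kept by filterByExpr (minimum count 10, minimum total 15), TMM factors scaled the libraries, and a quasi-likelihood fit (robust option) tested TBI against sham, with p-values adjusted by Benjamini and Hochberg's method over all genes tested (threshold 0.05). Standard errors are Wald errors of the fitted model. Differences between areas were fitted as the interaction of area and treatment. log2 CPM used a prior count of 3. DESeq2 1.42.0 and limma 3.58.1 (voom) were alternatives, as were other scaling, filters, covariates and left-out libraries, and a subset of hippocampal libraries that share a tag in their column names was added after the data were seen. The procedures were tested on simulated counts. Depth limits precision where a gene has few counts, and counting error alone is large under the floor of 3 counts.

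The genes and the lists were chosen with earlier results of these data known. The genes named in the text are the 6 chosen by rank. The genes next to them in rank or nearest in profile are described without identifiers, since 0 identifiers matched a symbol. For the same reason, the counts over 30 lists of pathway and cell type genes were not run. None of 20644 other identifiers with over 30 counts had counts identical to one of the 6 genes in every library.

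The same rats gave all areas, so the rat pairs the libraries by design. Deviations of libraries of the same rat from their group means had a mean correlation, across 15599 genes, of 0.0540 between cortex and thalamus. It was 0.117 for cortex with hippocampus and 0.0416 for thalamus with hippocampus. Each rat is a separate animal, and p-values of tests within an area measure the spread between animals. The main tests between areas did not use the pairing and treated the libraries of a rat as independent. A fit with the rat as a block was among the alternatives.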

Additional observations from a re-analysis of the deposited data

Results flagged for a closer look

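In groups of 5, a rat was singled out where its gap to the nearest other rat was over 0.71 of the range of the group, which chance gives in about 1 in 20 groups. Of the 36 groups of the 6 genes, 2 had such a rat. In the hippocampus after TBI, rat 6 had 1.08 CPM of ENSRNOG00000009540 (32 counts) and the next rat 1.86 CPM. In the thalamus after TBI, rat 7 had 0.134 CPM of ENSRNOG00000002158, which is 5 counts, and the next rat 0.0385 CPM, so this value is near the floor of 3 counts.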

How the results depend on the processing

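Of the 206 values of single genes under alternatives that have an adjusted p and come from contrasts that did not choose the gene, 180 kept their direction and their side of the threshold. The count of genes called in the thalamus was 934, and it was 1950 in DESeq2, 2692 in voom, 3457 in one fit for the 30 libraries and 0 with the share of the 10 most counted genes as a covariate. It ran from 0 (without rat 3, 5, 7 or 8) to 2421 (without rat 6) with each rat left out. In the hippocampus no gene was called by edgeR, 41 were called by DESeq2, 263 without the libraries labelled rats 3 and 8, and 0 to 1 with each rat left out. For the difference of effects, thalamus minus hippocampus, 0 genes were called, with 172 in DESeq2, 728 in voom and 0 to 849 with each rat left out. For cortex minus hippocampus, 537 genes were called, with 1041 in DESeq2, 1180 in voom, 126 without the libraries labelled rats 3 and 8, 272 without sham-operated rats 4 and 5, and 117 to 763 with each rat left out. With the rat as a replicate block, this count was 1048 and the difference of effects of ENSRNOG00000004756, thalamus minus hippocampus, was -0.14, and the block changed no other call given here.

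ENSRNOG00000008716 in the thalamus lost its call at a log2 fold change of -0.72 with that share as a covariate. The value was -0.89 to -0.67 with each rat left out, and the call was lost without rat 3, 4, 5, 7, 8 or 10. It was kept at -0.77 in DESeq2, -0.90 in voom and -0.79 in one fit. ENSRNOG00000001251 in the thalamus lost its call at -1.61 with the same covariate and without rat 3, 5, 7, 8 or 10, with -1.49 to -0.96 over single rats left out. ENSRNOG00000009540 in the thalamus passed the threshold at -0.78 in voom and at -0.71 in one fit. ENSRNOG00000004756 in the thalamus passed it at -0.91 in DESeq2, -1.08 in voom and -0.92 in one fit, with -1.14 to -0.75 over single rats left out. In the hippocampus, ENSRNOG00000009540 was at 0.0039 in voom and at -0.23 to 0.043 over single rats left out, and ENSRNOG00000004756 passed the threshold at -1.18 without the libraries labelled rats 3 and 8, with -1.10 to -0.53 over single rats left out and no call. For the difference of effects, thalamus minus hippocampus, ENSRNOG00000008716 passed it at -0.87 in voom, with -0.84 to -0.55 over single rats left out. For ENSRNOG00000004756 this difference was -0.00049 without a filter on low counts, -0.38 in voom and -0.34 to 0.23 over single rats left out (-0.34, -0.072, -0.27 and -0.042 without rats 1, 2, 6 and 7). The causes of these changes were not tested. Counts over lists of named genes were not run. Depth limits ENSRNOG00000017987, ENSRNOG00000002158 and ENSRNOG00000001251 to the areas where they had more than a trace.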
